A study of Homo sapiens with 6 samples.

Results

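Hyaluronan genes were examined in RNA sequencing of LX-2 cells, an established human hepatic stellate cell line. The set held 10 genes of the 60748 in the table: the synthases HAS1, HAS2 and HAS3, the hyaluronidases HYAL1, HYAL2 and HYAL3, the hyaluronan-degrading proteins CEMIP and CEMIP2, and the hyaluronan-binding proteins CD44 and HMMR. They were found by gene symbol. The family was chosen because HAS2 had the largest increase in the comparison described here, so the differences of its genes between the groups, and whether each gene passed the test, are given as a description. LX-2Vector cells (n = 3 libraries) received lentivirus with the empty GV367 vector, and LX-2FAP cells (n = 3 libraries) received the same vector carrying FAPα, the membrane serine protease fibroblast activation protein, under its Ubi promoter. Vector cells therefore share the EGFP and puromycin-resistance cassettes with LX-2FAP cells, and both were cultured for 24 h. The study's methods describe puromycin-selected clones without saying how many clones stand behind each group. The labels do not say whether the 3 libraries of a group came from separate cultures, so p-values measure the spread between these libraries, which may be technical. Below, the libraries are called Vector 1 to 3 and FAP 1 to 3, with the replicate numbers of the labels.

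Hyaluronan is a long, unsulfated glycosaminoglycan of the extracellular matrix. Synthases in the plasma membrane build it from UDP-glucuronic acid and UDP-N-acetylglucosamine and extrude the chain as it grows. Hyaluronidases then cleave it at the cell surface, in the matrix and in lysosomes, and cells bind it through receptors, chiefly CD44. In the liver, hepatic stellate cells are a main source of hyaluronan and sinusoidal endothelial cells clear it from the circulation.

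Total counts ran from 17355700 to 26352060 per library, and FAP itself had 42 to 55 counts in LX-2Vector libraries and 14805 to 15160 in LX-2FAP libraries. Vimentin and COL1A1 led the stellate cell markers, whereas LRAT had no count in any library and DES was near 0. Of the 11 stellate markers, 9 were tested, with VIM called higher and COL1A1, COL3A1 and PDGFRB called lower in LX-2FAP. Over all tested genes, 2.57% were called higher and 2.73% lower. The summed level of the 11 markers was 1901 to 2015 counts-per-million (CPM) in LX-2Vector and 1947 to 2077 in LX-2FAP. Most of this sum was VIM, at 1545 CPM in LX-2Vector and 1695 in LX-2FAP, followed by COL1A1 at 306 and 232. ACTA2, THY1 and COL1A2 were low, at 3.82, 1.90 and 1.17 CPM in LX-2Vector. The markers of other cells were low as well. The 5 hepatocyte markers summed to 12.9 to 14.8 CPM in LX-2Vector and 10.5 to 11.8 in LX-2FAP, nearly all of it SERPINA1, with TTR at 0. The sums were 9.92 to 11.3 and 7.34 to 9.26 CPM for the 6 endothelial markers, of which VWF was called lower, 15.6 to 19.6 and 16.1 to 20.5 CPM for the 6 myeloid markers, and 4.47 to 7.58 and 3.63 to 5.67 CPM for the 4 epithelial markers. A count of 0 allows up to 3 counts, which is 0.114 to 0.173 CPM across the libraries. The part of these markers in the results was not tested. Single libraries weighed on how many genes passed the test across the transcriptome. The number went from 967 to 26 when FAP 3 was left out and to 129 when FAP 2 was. It was 391 without Vector 1, 395 without Vector 3 and 1949 without FAP 1. Calls in the family and in the lists of further genes that rest on 1 library are therefore marked beside each result. For the calls of the cell type markers this was not checked.

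HAS2, the main synthase of mesenchymal cells, doubled in LX-2FAP. HAS2 (ENSG00000170961, GRCh38 chromosome 8, 121612116 to 121641390, minus strand) was counted 228, 187 and 262 times in Vector 1 to 3, against 454, 373 and 491 times in FAP 1 to 3. In normalized units the LX-2Vector libraries stood at 8.63, 10.7 and 12.3 CPM and the LX-2FAP libraries at 18.9, 20.7 and 23.4 CPM. Every LX-2FAP library was thus above every LX-2Vector library, and the spread within each group was smaller than the gap between them. The group levels were 10.5 ± 1.85 and 21.04 ± 2.26 CPM (SD, n = 3 each), a log2 fold change of 1.01 (SE 0.11), or 2.01-fold. Counting error alone was 7.31% at the lowest HAS2 count. These are bulk libraries, so a doubling in every cell cannot be told apart from a larger change in some of the cells.

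HAS2 was chosen by its rank in this comparison, so the genes nearest to it are given only to place it. Among 875 genes that passed the test at an edgeR adjusted p under 0.05, had 100 counts or more on average and did not overlap between the groups, FAP left out, HAS2 had the largest log2 fold change. ESM1 followed at 0.61 and MMP1 at 0.57. When each of the 6 libraries was left out in turn, its log2 fold change lay between 0.87 without Vector 1 and 1.15 without Vector 3. With limma-trend on log2(FPKM + 1), where FPKM is the fragment count scaled to gene length and library size, the log2 fold change was 0.76 on that scale and HAS2 was not called.

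HAS2-AS1, the antisense transcript that overlaps the 5′ end of HAS2 on the plus strand (ENSG00000248690, chromosome 8, 121639293 to 121993876), did not show this pattern. It had 16, 10 and 16 counts in LX-2Vector and 14, 11 and 16 counts in LX-2FAP, and the groups overlapped (log2 fold change 0.02, SE 0.29). HAS2 had 14.2, 18.7 and 16.4 counts for each HAS2-AS1 count in LX-2Vector and 32.4, 33.9 and 30.7 in LX-2FAP. HAS2 shares 4.80% of its exon bases with HAS2-AS1. Whether the counting used strand is not given in the sources used here, so reads from these shared bases may have been counted for neither or for the wrong gene.

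The other synthases were low, and neither was called. HAS3, which in general makes shorter hyaluronan chains (ENSG00000103044, chromosome 16, 69105564 to 69118719), had 1.70, 1.65 and 2.45 in LX-2Vector and 2.04, 1.5 and 1.81 CPM in LX-2FAP. The groups overlapped throughout, and the log2 fold change was -0.10 (SE 0.21). It was 0.11 without Vector 3, so its sign rests on single libraries. HAS1 (ENSG00000105509, chromosome 19, 51713112 to 51723994) had 1, 6 and 3 counts in LX-2Vector and 7, 2 and 4 in LX-2FAP. At 10 and 13 counts in all, HAS1 did not pass the filter on low counts and was not tested.

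**Figure D1:**
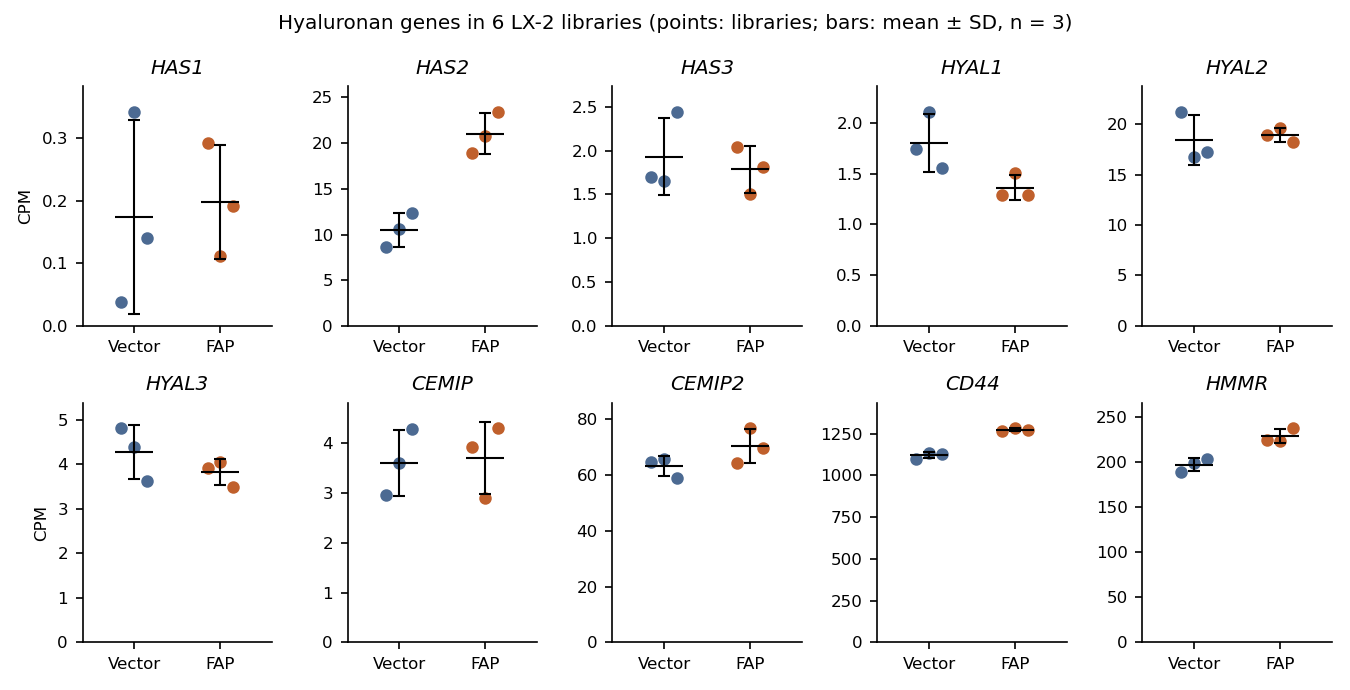
Each panel plots 1 hyaluronan gene, with LX-2Vector (blue) and LX-2FAP (orange) libraries on the x axis and CPM on a y axis that starts at 0. Points are libraries, horizontal bars are means and whiskers are the SD (n = 3). HAS2 goes from 8.63 to 12.3 CPM in LX-2Vector to 18.9 to 23.4 CPM in LX-2FAP, CD44 and HMMR are higher by smaller steps, HYAL1 is lower without overlap and not called, and the remaining genes overlap.

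HAS2 was also most of the synthase transcript to begin with. Per length, it held 85.5, 84.2 and 84.5% of the summed FPKM of the 3 synthases in Vector 1 to 3, and 89.5, 93.5 and 92.7% in FAP 1 to 3. The shares did not overlap between the groups, which mostly restates the HAS2 difference on which the family was chosen. HAS3 held 12.7 ± 1.77% in LX-2Vector and 6.42 ± 1.28% in LX-2FAP (SD, n = 3 each). The summed synthase level was 2.39, 3.02 and 3.47 FPKM in LX-2Vector and 4.94, 5.16 and 5.88 FPKM in LX-2FAP, of which HAS2 was 2.04, 2.54 and 2.93 FPKM and 4.43, 4.82 and 5.45 FPKM.

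None of the enzymes of hyaluronan breakdown in the family was called by edgeR or DESeq2. Before adjustment in edgeR, 1 of these 5, CEMIP2, was under 0.05, beside 3087 of all 17308 tested genes not called. HYAL1, HYAL2 and HYAL3 lie side by side on chromosome 3, between 50292831 and 50322906, all on the minus strand. HYAL2, the hyaluronidase anchored at the cell surface (ENSG00000068001), was the most abundant of them per length, with 21.2, 16.8 and 17.2 in LX-2Vector and 18.9, 19.6 and 18.2 CPM in LX-2FAP. The groups overlapped, and its log2 fold change was 0.03 (SE 0.09), with the opposite sign when libraries were scaled by total count alone (-0.0015). HYAL3 (ENSG00000186792), whose own activity is less well established, had 4.81, 4.39 and 3.62 in LX-2Vector and 3.92, 4.06 and 3.48 CPM in LX-2FAP, again with overlap (log2 fold change -0.17, SE 0.14). HYAL2 shares 11.2% of its exon bases with TUSC2 and HYAL3 14.3% with IFRD2 and NAA80, all on the same strand, so the counts of both are uncertain.

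HYAL1, the lysosomal hyaluronidase (ENSG00000114378), was the only one of the 3 whose groups did not overlap. It had 1.74, 2.11 and 1.55 in LX-2Vector and 1.29, 1.5 and 1.29 CPM in LX-2FAP, so the highest LX-2FAP library lay just under the lowest LX-2Vector library. The log2 fold change was -0.40 (SE 0.20), and HYAL1 was not called by edgeR. These values rest on 27 to 46 counts per library, where counting error alone reaches 19.2%.

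CEMIP and CEMIP2 are unrelated in sequence to the hyaluronidases, and both are known for the cleavage of hyaluronan outside lysosomes or its uptake. CEMIP (ENSG00000103888, chromosome 15, 80779343 to 80951776) had 2.95, 3.59 and 4.28 in LX-2Vector and 3.92, 2.89 and 4.30 CPM in LX-2FAP. Its groups overlapped, and its log2 fold change of 0.06 (SE 0.17) changed sign without Vector 1 (-0.08) or FAP 3 (-0.05). CEMIP2 (ENSG00000135048, chromosome 9, 71683366 to 71816690) had higher counts, with 64.5, 65.9 and 59.1 in LX-2Vector and 64.5, 76.8 and 69.9 CPM in LX-2FAP. FAP 1 lay within the LX-2Vector range and the other 2 LX-2FAP libraries above it. The log2 fold change was 0.15 (SE 0.06) and was not called. It was 0.22 and called without FAP 1.

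Set against HYAL2 within each library, HAS2 went from the lower to the higher transcript per length. CEMIP2, the most abundant of the breakdown genes in the family, stayed above HAS2 in LX-2FAP (7.52 ± 0.645 against 4.90 ± 0.519 FPKM, SD, n = 3). The ratio of HAS2 to HYAL2 FPKM was 0.424, 0.663 and 0.746 in LX-2Vector and 1.04, 1.10 and 1.34 in LX-2FAP, below 1 in every LX-2Vector library and above 1 in every LX-2FAP library. The ratio of the summed synthases to the summed HYAL1, HYAL2 and HYAL3 was 0.434 ± 0.124 in LX-2Vector and 0.813 ± 0.115 in LX-2FAP (SD, n = 3 each). HYAL2 made up 60.1 ± 3.17% of the summed hyaluronidase FPKM in LX-2Vector and 64.2 ± 0.916% in LX-2FAP. HYAL2 hardly differed between the groups, so the ratios to it and to the summed hyaluronidases mostly restate the HAS2 difference on which the family was chosen. They also rest on HYAL2 counts, which are uncertain. These ratios are of transcripts and not of enzyme activity or hyaluronan, neither of which was measured here.

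**Figure D2:**
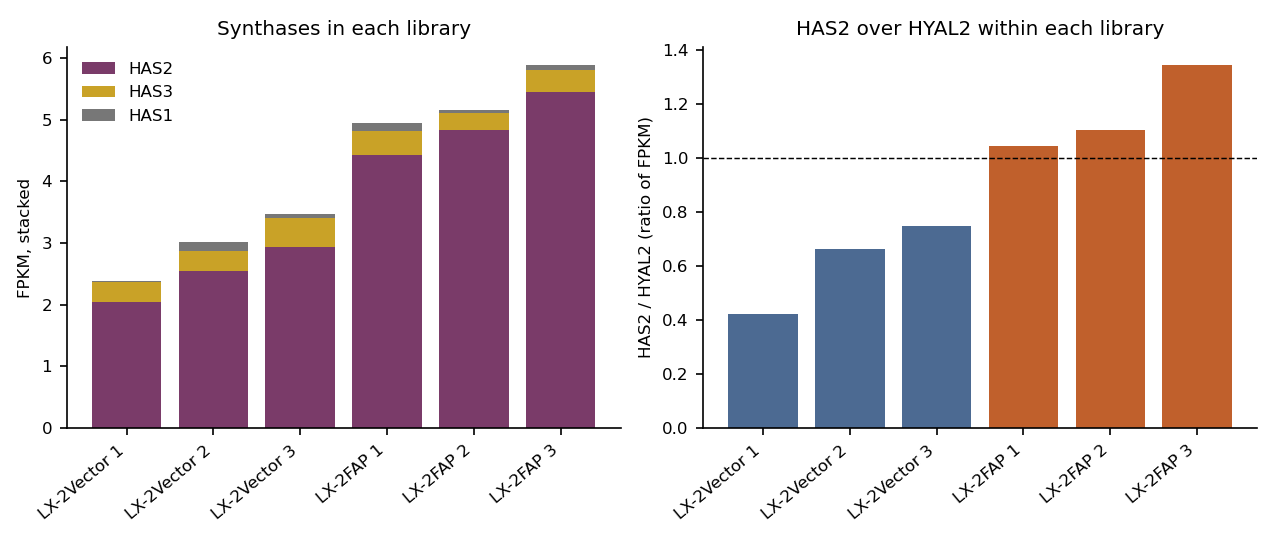
Left, FPKM of HAS2, HAS3 and HAS1 stacked for each library (x axis, libraries, y axis, FPKM from 0). Right, the ratio of HAS2 to HYAL2 FPKM in each library, with a dashed line at 1. The stacks reach 2.39 to 3.47 FPKM in LX-2Vector and 4.94 to 5.88 FPKM in LX-2FAP, and the ratio is above 1 in each LX-2FAP library and below 1 in each LX-2Vector library.

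CD44 (ENSG00000026508, chromosome 11, 35138870 to 35232402) is the principal cell-surface receptor for hyaluronan, and its transcript was abundant in LX-2Vector already. It had 1097.9, 1131.5 and 1129.4 in LX-2Vector and 1264.2, 1281.9 and 1271.9 CPM in LX-2FAP. The libraries of each group lay close together and the groups were clearly separate, although the step was small. The level went from 1119.6 ± 18.8 to 1272.7 ± 8.88 CPM (SD, n = 3 each), which was 13.7% higher by the fitted log2 fold change of 0.18 (SE 0.03). CD44 was not called without FAP 2 (0.18) or FAP 3 (0.19), although the size of the difference hardly moved. The counts are summed over all CD44 transcripts, so the standard and variant isoforms are not resolved.

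HMMR, also known as RHAMM, binds hyaluronan at the cell surface and works inside the cell as a spindle protein of mitosis (ENSG00000072571, chromosome 5, 163460203 to 163491945). It had 188.8, 198.6 and 203.2 in LX-2Vector and 224.7, 223.3 and 237.2 CPM in LX-2FAP. All LX-2FAP libraries were above all LX-2Vector libraries. HMMR was 16.1% higher in LX-2FAP by its log2 fold change of 0.21 (SE 0.04), and the call was lost without FAP 3 (0.19).

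Of the 9 genes of the family that passed the filter on low counts, 3 were called (HAS2, CD44 and HMMR, all higher), beside 5.29% of the 18275 genes tested, 2.57% called higher and 2.73% called lower. The groups did not overlap for 4 of the 9, the called genes and HYAL1, beside 26.4% of tested genes. Nothing is read from these counts, since the family was chosen on this contrast. The study's cutoff, stated for its heatmap of secreted factors, was a fold change over 1.2 with p under 0.05. Applied to the edgeR fit made here, with p read as unadjusted, HAS2 alone of the 9 passed, beside 7.89% of tested genes. Limma-trend on FPKM called none of the 9. The median log2 fold change of the 9 genes was 0.06, and 0.05 without HAS2, beside -0.01 over all tested genes.

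Levels between genes were compared per length. In LX-2Vector, CD44 was highest at 112.9 ± 2.40 FPKM, above 98.9% of tested genes, and HMMR second at 50.5 ± 2.09 FPKM, above 96.5%. A wide step separated these from CEMIP2 at 6.88 ± 0.388 FPKM, HYAL2 at 4.19 ± 0.542, HAS2 at 2.50 ± 0.447 and HYAL3 at 2.19 ± 0.302 FPKM. HYAL1 (0.588 ± 0.0937 FPKM), CEMIP (0.477 ± 0.0892), HAS3 (0.375 ± 0.0865) and HAS1 (0.0783 ± 0.0699) came last (SD, n = 3 each). Neighbours in this order whose libraries overlapped were HAS2 and HYAL3, HYAL1 and CEMIP, and CEMIP and HAS3, and the others were separate. In LX-2FAP, HAS2 reached 4.90 ± 0.519 FPKM and moved up by 1 place, with all its libraries (4.43 to 5.45 FPKM) above those of HYAL2 (4.06 to 4.38 FPKM), and it no longer overlapped HYAL3 (1.92 ± 0.151 FPKM).

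**Figure D3:**
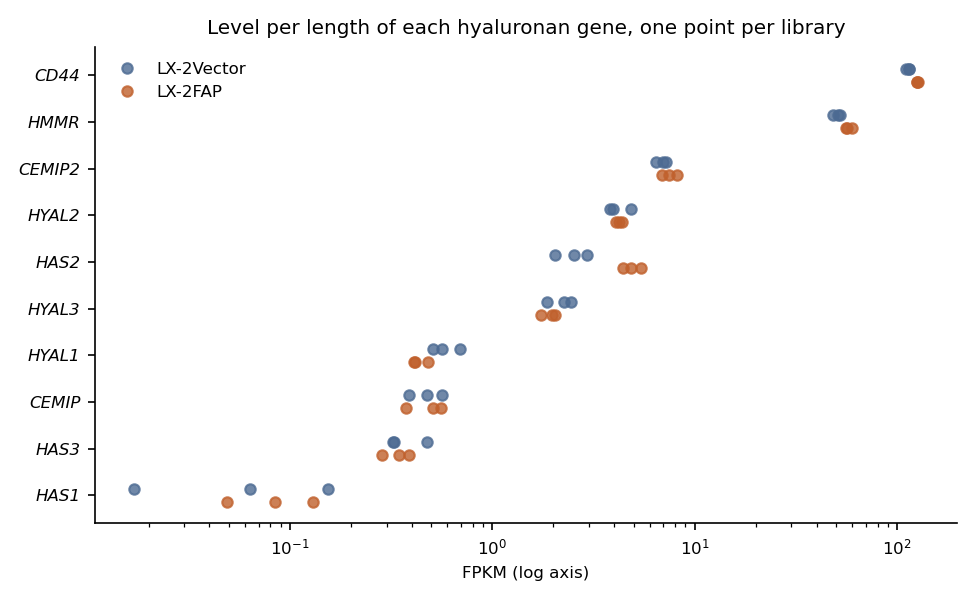
FPKM of each hyaluronan gene on a log x axis, with genes on the y axis in the order of their mean in LX-2Vector and 1 point per library (blue, LX-2Vector, orange, LX-2FAP). The genes span from HAS1, at 0.0783 FPKM on average in LX-2Vector, to CD44 at 112.9 FPKM, and the HAS2 points lie below those of HYAL2 in LX-2Vector and above them in LX-2FAP.

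The building blocks of hyaluronan come from the UDP-sugar pathways, and all 8 enzymes listed for them were tested. Of these, 3 were called higher (beside 2.57% of all tested genes) and none was called lower, where 1 had an unadjusted p under 0.05 and DESeq2 also called 0. This list, like those below, was chosen with earlier results of these data known, so its count is a description. All 3 belong to the hexosamine branch that ends in UDP-N-acetylglucosamine. UAP1, which makes UDP-N-acetylglucosamine, had 148.6, 158.5 and 149.5 in LX-2Vector and 164.4, 176.0 and 172.6 CPM in LX-2FAP (edgeR quasi-likelihood log2 fold change 0.17, SE 0.04, adjusted p = 0.0372). PGM3, which makes the preceding sugar phosphate, was at 152.0 ± 2.53 and 170.7 ± 4.13 CPM (0.17, SE 0.04, edgeR adjusted p = 0.0284), and GFPT1, the entry enzyme of the branch, at 152.1 ± 2.11 and 168.3 ± 5.09 CPM (0.15, SE 0.04, edgeR adjusted p = 0.04995). All 3 were without overlap between the groups, and the differences are 10.6 to 12.4%.

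Of the enzymes not called, UGDH, which makes UDP-glucuronic acid, had a log2 fold change of 0.12 (SE 0.04), GNPNAT1 of 0.14 (SE 0.05) and GFPT2 of 0.00. The log2 fold change was positive for 7 of the 8, with a median of 0.13, beside 47.0% and -0.01 over all tested genes. With libraries scaled by total count alone it was positive for 6 of the 8, the median was 0.11 and none of the 3 was called. The largest difference of the 8 was in the other direction. PGM1, which interconverts glucose phosphates, had 69.9 ± 1.95 CPM in LX-2Vector and 61.1 ± 4.68 in LX-2FAP without overlap (-0.19 on the log2 scale, SE 0.06, adjusted p = 0.057 by edgeR), and it was called lower with scaling by total count alone and without FAP 1. None of UAP1, PGM3 and GFPT1 was called without Vector 1, Vector 3, FAP 2 or FAP 3, or by limma-trend on FPKM, and GFPT1 was not called without Vector 2 either.

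Proteins that bind hyaluronan in the matrix or in serum were mostly too low to test, with 6 of 19 passing the filter. PTX3, a pentraxin that takes part in cross-linking hyaluronan chains, was by far the most abundant of them per length (75.4 FPKM in LX-2Vector) and was called higher. It had 136.9, 141.4 and 144.4 in LX-2Vector and 173.9, 175.9 and 183.6 CPM in LX-2FAP, with no overlap (edgeR quasi-likelihood log2 fold change 0.34, SE 0.04, adjusted p = 0.00137). This is 26.2% higher, and PTX3 was called whichever library was left out, though not by limma-trend on FPKM. TNFAIP6, which transfers heavy chains onto hyaluronan and works with PTX3 in that matrix, had 3.86 ± 0.582 and 4.19 ± 0.465 CPM (0.12, SE 0.15), and neither HAPLN3, a link protein (-0.31, SE 0.16), nor the proteoglycan VCAN (-0.07, SE 0.12) was called. BCAN, a brain proteoglycan, had the largest difference of the 6 on few counts, 40 over the LX-2Vector libraries and 19 over the LX-2FAP libraries, without overlap (-1.0, SE 0.35). It was the 1 gene of the 6 with a negative difference and an unadjusted p under 0.05 in edgeR, and none was called lower by edgeR or DESeq2.

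No gene was called by edgeR among the remaining receptors or the partners of CD44. Of 4 tested receptors outside the family, LAYN was the most abundant at 72.7 ± 0.581 in LX-2Vector and 74.8 ± 1.32 in LX-2FAP (CPM), a log2 fold change of 0.04 (SE 0.04), followed by TLR4 (0.08, SE 0.12) and TLR2 (-0.21, SE 0.21). The scavenger receptor STAB2 had the largest difference of the 4, with 41 counts over the LX-2Vector libraries and 22 over the LX-2FAP libraries and no overlap (-0.84, SE 0.35). It was the 1 receptor with an unadjusted p under 0.05 in edgeR, and DESeq2 called 0. GUSB and HEXA, lysosomal glycosidases that take part in the breakdown of hyaluronan fragments, had log2 fold changes of -0.15 and 0.03 (SE 0.05 and 0.06), and neither was called by edgeR or DESeq2, although edgeR called GUSB lower with scaling by total count alone. Of 8 tested genes that link CD44 to actin, shed it or splice it, 2 had an unadjusted p under 0.05. Over the whole table, 3087 of the 17308 tested genes not called by edgeR were under the same threshold. MSN was called higher by DESeq2, and by edgeR without Vector 1, without FAP 1 and with no filter on low counts. The linkers MSN, EZR and RDX had log2 fold changes of 0.12, 0.02 and 0.09 (SE 0.04 each).

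Because HMMR is made mainly in dividing cells, 18 genes of mitosis were set beside it. Of the 18, 4 were called higher by edgeR, beside 2.57% of all tested genes. None was called lower by edgeR or DESeq2, with 0 lower at an unadjusted p under 0.05. CENPE, a kinetochore motor, was at a log2 fold change of 0.22 (edgeR SE 0.05 and adjusted p = 0.0335). ASPM, a spindle pole protein, had 0.19 (SE 0.05, edgeR adjusted p = 0.0306), DLGAP5, a spindle assembly factor, 0.16 (SE 0.04, edgeR adjusted p = 0.0436), and cyclin B1 (CCNB1) 0.15 (SE 0.04, edgeR adjusted p = 0.0356). These 4 genes were 10.7 to 16.1% higher, beside 16.1% for HMMR.

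The other 14 mitosis genes were not called. TPX2, which binds HMMR at the spindle, had a log2 fold change of 0.10 (SE 0.04), TOP2A 0.09 (SE 0.04) and AURKA 0.14 (SE 0.05). The log2 fold change was positive for 17 of the 18 with a median of 0.10, beside 47.0% and -0.01 over all tested genes. With libraries scaled by total count alone it was positive for 14 with a median of 0.07, and none was called. The median over all tested genes was then -0.04. None of the 18 was called without FAP 2 or without FAP 3. The number called was 1 without Vector 1 or Vector 3, 2 without Vector 2 and 7 without FAP 1. Limma-trend on FPKM called none, and DESeq2 called 9. The part of cell division in the HMMR difference was not tested.

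**Figure D4:**
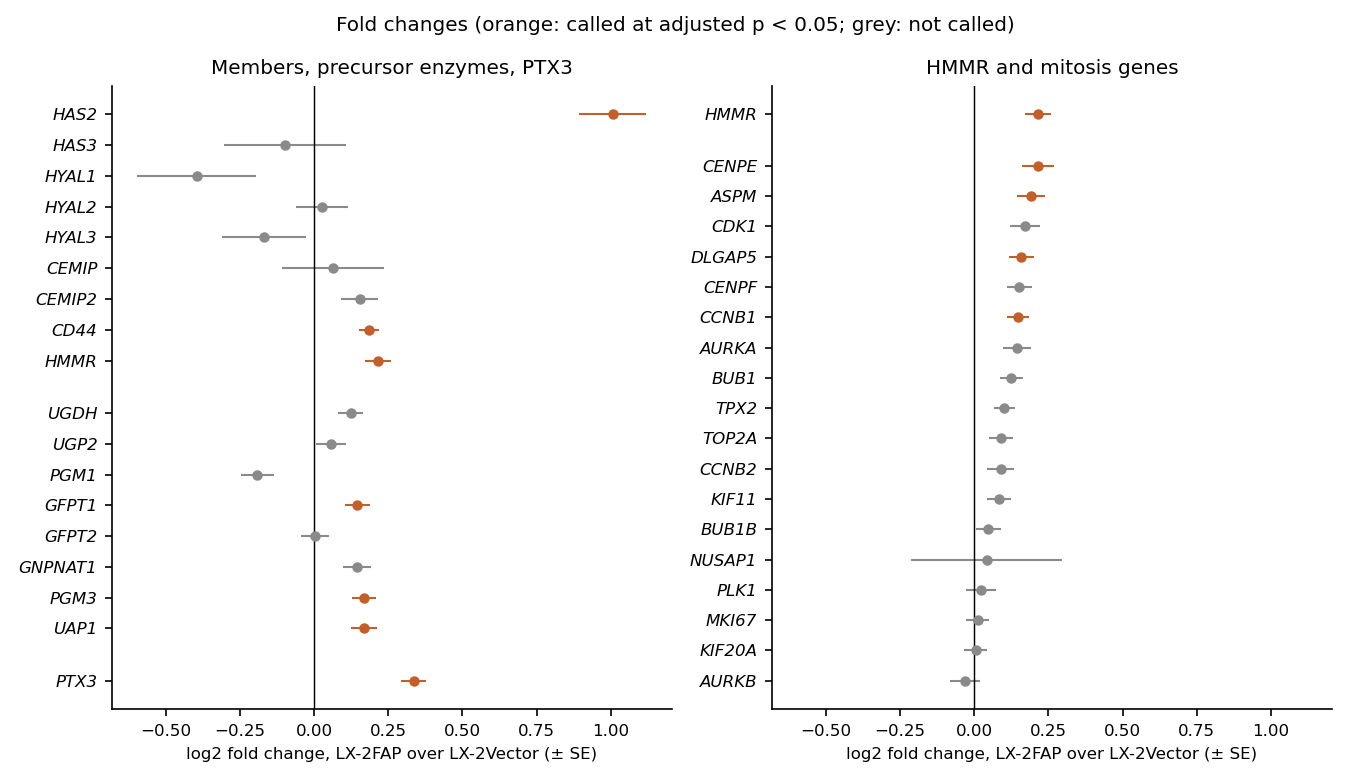
Log2 fold changes of LX-2FAP over LX-2Vector (x axis, whiskers are the SE of the edgeR fit) for the tested hyaluronan genes, the precursor enzymes and PTX3 (left) and for HMMR and 18 mitosis genes (right). Orange marks genes called at an adjusted p under 0.05 and grey those not called. HAS2 stands apart at 1.01, and PTX3, the next of the called genes plotted, is at 0.34.

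The promoter letters of HMMR were compared with those of the called mitosis genes, because many genes of mitosis carry a CHR element (TTTGAA) together with CCAAT boxes. The 250 bases before each RefSeq start (GRCh38.p14) were searched on both strands, and the motifs can share no more than 1 end letter. TTTGAA was present in 13.3% of all 35116 promoters, in 55.6% of the 18 promoters of the 16 mitosis genes that could be matched, and in 2 of 10 promoters of the hyaluronan family (HMMR and HAS1), of which 9 genes were matched. CCAAT was present in 32.0% of all promoters, in 88.9% of those of the mitosis genes and in 1 of the 10 of the family, that of HMMR, which held it 5 times. The stretches around the match nearest to the start are shown on the strand of each gene, with TTTGAA or its reverse complement in capitals.
HMMR, chr5:163460598-163460627, plus strand: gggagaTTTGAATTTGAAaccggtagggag
ASPM, chr1:197146765-197146794, minus strand: cggatgcaatcaTTCAAAtgaagcgccgcc
DLGAP5, chr14:55191677-55191706, minus strand: cctttcaatcaaTTCAAAtatcgcacggag
HMMR held 2 matches in tandem, the nearer of them 22 bases before the start, and the nearest matches of ASPM and DLGAP5 were 113 and 109 bases before theirs. CCNB1 held 2 CCAAT letters and no TTTGAA in this window, and CENPE held neither. The matches are letters only and say nothing on whether a factor was bound.

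Genes whose pattern over the 6 libraries was most like that of HAS2 were ranked by Pearson's r of log2 CPM, among the 11550 genes that averaged 100 counts or more. Among the closest were SLC25A24 (r = 0.997), KPNA3, ESF1 and RECQL (r = 0.996 each). The libraries share their group, so a gene that differs between the groups will tend to rank high, and r was over 0.9 for 798 genes. Although these genes tracked HAS2 closely, their log2 fold changes were far smaller, at 0.18, 0.16, 0.24 and 0.16.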

How the data were processed

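RNA of 6 LX-2 libraries was sequenced by the authors, who, per the labels and methods, aligned reads with HISAT2 2.0.5 and counted them per gene with featureCounts 1.5.0-p3. The labels describe depletion of ribosomal RNA and the methods also a poly(A) isolation. The deposited table holds raw counts, which were not normalized, and FPKM values that the authors computed from count and gene length. The submitters' processing notes name hg18, whereas GENCODE release 29 (GRCh38), the source of coordinates and exon overlaps here, holds 58337 of the 60605 Ensembl identifiers. The annotation release and strand setting of the counting are not given in the sources used here. Only 1 of the 10 gene lengths behind the FPKM values equalled the merged exon length of that release, so exon overlaps are approximate.

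Counts were tested with edgeR 4.0.16 (quasi-likelihood test, TMM, default filter with a minimum count of 10 and total of 15, R 4.3.3) on all 18275 genes that passed, LX-2FAP against LX-2Vector with no covariate, with Benjamini-Hochberg adjustment over all of them. Calls are at an adjusted p under 0.05. CPM used TMM-scaled library sizes. The script was tested on simulated data with changes larger than most described here, and with limma on CPM. That test does not cover the smaller differences or limma-trend on FPKM. Libraries of a group differed beyond counting error (chi-square over degrees of freedom, 2.02 to 4.99). Alternatives were DESeq2 1.42.0, limma-trend (limma 3.58.1) on log2 FPKM with pseudocounts of 1 and 0.1, other scalings and filters, the replicate number as a block and each library left out. The family and all gene lists were chosen with earlier results of these data known. Named are all members, each called gene of a list and the 3 others of highest mean FPKM in that list, and the 5 genes most like HAS2, except items that are not reported here. ESM1, MMP1, ITIH2, PGM1, BCAN and STAB2 were picked after their values were seen. Groups and replicate numbers came from the titles. Promoter sequences are from RefSeq (GRCh38.p14). Intervals and floors cover counting error only.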

Additional observations from a re-analysis of the deposited data

How the results depend on the processing

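Over all genes the number called was 967, and 1606 with no filter on low counts, 2 with limma-trend at either pseudocount and 26 (without FAP 3) to 1949 (without FAP 1) when 1 library was left out. It was 129 without FAP 2, 391 without Vector 1 and 395 without Vector 3. The HAS2 log2 fold change was 0.76 and 0.95 with limma-trend at pseudocounts of 1 and 0.1, not called in either, and 0.87 to 1.15 with 1 library left out, called each time. Of the hyaluronan family 3 genes were called, 0 with limma-trend at either pseudocount (where 3 higher and 1 lower had an unadjusted p under 0.05), 1 at the study's cutoff, and 1 (without FAP 3) to 4 (without FAP 1) with 1 library left out. Further pathway genes called higher were 4, and 1 with library size alone (PTX3), 0 with limma-trend at either pseudocount (7 at an unadjusted p under 0.05) and 1 to 8 with 1 library left out. It was 2 without Vector 1, 1 without Vector 3, FAP 2 or FAP 3, and 8 without FAP 1. Those called lower were 0 by edgeR (4 at an unadjusted p under 0.05), 2 with library size alone (GUSB and PGM1), 2 with no filter (PGM1 and ITIH2) and 0 to 1 with 1 library left out (PGM1, without FAP 1). Mitosis genes called higher were 4, and 9 with DESeq2, 7 with no filter, 0 with library size alone, 0 with limma-trend at either pseudocount (7 or 8 at an unadjusted p under 0.05) and 0 to 7 with 1 library left out (1 without Vector 1 or 3, 2 without Vector 2). Signs changed for HAS3 without Vector 3 (0.11) or FAP 2 (0.0027), for HYAL2 with library size alone (-0.0015), without Vector 2 (-0.024) or Vector 3 (-0.017), and for CEMIP without Vector 1 (-0.081) or FAP 3 (-0.048), none of them called. With 1 library left out these 3 ranged from -0.21 to 0.11, from -0.024 to 0.15 and from -0.081 to 0.22. The HAS2 share of synthase transcripts in LX-2Vector was 84.7% by FPKM, 83.4% by counts and 84.4 to 85.01% with 1 library left out, and in LX-2FAP 91.1 to 93.1% with 1 library left out. By CPM, which is not per length, CEMIP, HAS3 and HYAL1 took other places in the order of levels (3 genes). Replicate numbers were checked as a pairing: deviations from the group means correlated at r = -0.0389, 0.0436 and -0.00962 for the same number and from -0.110 to 0.122 for other numbers, so the numbers do not pair the libraries. With the replicate number as a block, 975 genes were called, the HAS2 log2 fold change was 1.01, the family kept 3 calls (HAS2, CD44 and HMMR), and 3 further pathway genes (GFPT1 lost its call) and 5 mitosis genes were called higher. The causes of these shifts were not tested. Depth limits HAS1, HAS3, HYAL1 and HAS2-AS1, which had at most 52 counts in any library.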
